A study of Mus musculus with 2 samples.

Results

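Expression of the nuclear genes that encode the complexes of oxidative phosphorylation was examined in E12.5 mouse distal forelimbs. Genes were chosen by symbol: Nduf followed by a, b, ab, c, s or v and a number for complex I, Sdha to Sdhd for complex II, Uqcr for complex III, Cox4 to Cox8 for complex IV and Atp5 for complex V. This rule gave 84 of the 23157 genes of the table, with 1 symbol marked as a pseudogene left out. Of these, 80 passed a filter of at least 10 normalized reads on average over both libraries, namely all 37 genes of complex I, all 4 of complex II, all 8 of complex III, 15 of 17 for complex IV and 16 of 18 for complex V. The name of the list holds with 3 exceptions, since Cox4nb, Atp5s and Atp5sl carry such symbols without being subunits of the complexes, and Ndufa4 is counted here under complex I by its name although it is now placed with complex IV. The rule also leaves out nuclear subunit genes with other symbols, such as Cyc1 of complex III, so that the complexes are not covered in full. Cox8b and Cox8c were not analysed here.

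The study compared 1 wild-type library with 1 library of embryos that carry HoxD Inv(TpSB1-Itga6), in which a 2.4 Mb segment next to the HoxD cluster is inverted (homozygous mutant embryos, by the methods of the study). Both were of strain C57Bl6CBAF1 at E12.5 and were given the same handling: poly(A)-selected RNA of a pool of 3 pairs of forelimbs, dissected distally. The wild-type sample is titled wtFL and the mutant invDFL, while both carry the tissue label distal limb and the table heads both columns as DFL, so that a difference in dissection between them was not tested. Neither genotype was replicated, so no difference could be set against the spread between samples. The intervals given are 95% intervals by the exact method of Clopper and Pearson, taken on the share of a gene's reads that fell in the inversion library and rewritten as a log2 ratio. They cover counting error only and compare the 2 libraries, not the genotypes. The libraries held 9280660 (wild type) and 9466154 (inversion) assigned reads. Values are normalized reads, that is reads divided by the size factor of the library, and the log2 ratio is that of inversion over wild type after adding 1 to both, so that the ratio of a gene with few reads comes out too small. Where values come in pairs, wild type stands first. In bulk tissue, fewer cells of a type and less RNA per cell cannot be told apart.

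Complexes I to IV form the electron transport chain of the inner mitochondrial membrane. Complex I takes electrons from NADH and complex II from succinate, complex III passes them from ubiquinol to cytochrome c, and complex IV hands them to oxygen. The proton gradient that I, III and IV build up drives complex V, the ATP synthase. A few subunits of complexes I, III, IV and V are encoded by mitochondrial DNA, and the others by nuclear genes. Those nuclear genes that fit the symbol rule are described here. Several subunits have a second gene used mainly in heart and skeletal muscle. Cells of the embryonic limb bud are also known to use glycolysis.

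Many genes of this kind left processed pseudogenes elsewhere in the genome, so that a read of 100 bases may fit both. The members with the highest ratios, Atp5h, Cox7c and Uqcrb, each share coding sequence with such a copy. Only the main coding transcript of each gene was searched. In wild type and inversion it had 7 and 9 reads for Atp5h, and 21 and 27 for Uqcrb. These 2 genes gained most reads in other transcripts, which were not searched. The stretches below are the first 100 coding bases in a row that are found unchanged in an annotated gene elsewhere, and are read from GENCODE M21 transcripts on GRCm38, in the sense of the gene. Atp5h (coding bases 70 to 169, within chr11:115417889-115418438, minus strand, across an intron) has the copy in Gm10250 on chromosome 15. Cox7c (coding bases 32 to 131, chr13:86045772-86045871, minus strand, in 1 exon) has it in Gm12338 on chromosome 11. Uqcrb (coding bases 1 to 100, within chr13:66901560-66905311, minus strand, across introns) has it in Gm2962 on chromosome 1. All 3 copies are processed pseudogenes.
Atp5h: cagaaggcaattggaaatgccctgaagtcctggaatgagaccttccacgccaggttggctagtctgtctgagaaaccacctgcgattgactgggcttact
Cox7c: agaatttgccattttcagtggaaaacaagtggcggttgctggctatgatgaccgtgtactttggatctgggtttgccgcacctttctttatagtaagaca
Uqcrb: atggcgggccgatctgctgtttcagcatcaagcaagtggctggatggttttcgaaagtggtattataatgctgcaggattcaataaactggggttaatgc

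Promoters were read as well. RefSeq promoter windows on GRCm38.p6, from 250 bases before to 50 bases after the annotated start, were found for 69 of the 84 genes (75 windows). They were searched on both strands for GCATGCG, the core of the site of nuclear respiratory factor NRF1, for CCGGAAG, a site of ETS factors such as GABP (NRF-2), and for ATGGCGG, a site of the YY1 type that can also be a start codon with the bases behind it. NRF1 and GABP are textbook regulators of respiratory chain genes. No window held overlapping matches of different motifs. The NRF1 core was present in 11 of the 69 genes (15.9%), against 4.01% of all 27025 genes with a window and 4.96% of the 17492 protein-coding ones. The ETS site was present in 16 (23.2%), against 9.93% and 12.9%. The YY1-type site was present in 11 (15.9%), against 4.69% and 6.05%. At least 1 of these motifs was found in 31 genes (44.9%), against 16.6% of all and 21.1% of coding genes. One stretch per motif is shown, the 100 bases before the start, with the motif in capitals (for Atp5g2, the core on both strands, which overlap). These are Atp5g2 (NRF1, chr15:102671048-102671147, minus strand), Atp5h (ETS on the opposite strand, chr11:115419920-115420019, minus strand) and Ndufa7 (YY1 type, chr17:33824472-33824571, plus strand).
Atp5g2: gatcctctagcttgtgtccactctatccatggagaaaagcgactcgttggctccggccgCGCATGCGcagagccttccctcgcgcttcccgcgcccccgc
Atp5h: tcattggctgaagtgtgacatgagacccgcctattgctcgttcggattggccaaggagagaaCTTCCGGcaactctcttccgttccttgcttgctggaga
Ndufa7: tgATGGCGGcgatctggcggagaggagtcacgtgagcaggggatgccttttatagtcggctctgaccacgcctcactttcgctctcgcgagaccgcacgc

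A match is a description of letters and not a measured site. The median log2 ratio was -0.05 for the 30 members that passed the filter and held a motif and -0.01 for the 37 without. For the YY1-type site it was -0.14 (11 members), for the ETS site -0.05 (15 members) and for the NRF1 core -0.02 (10 members). Members without the given motif had a median of -0.05 for each of them (56, 52 and 57 members in the same order). Members without a promoter window entered neither side. The mRNAs of the factors themselves had near equal levels. Nrf1 had 1229 normalized reads in wild type against 1200 in the inversion library (log2 ratio -0.03, interval -0.15 to 0.08). Gabpa had 1174 and 1163 (-0.01, interval -0.13 to 0.11), and Yy1 had 804 and 823 (0.03, interval -0.11 to 0.18).

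Together the 84 genes took 55541 reads of the wild-type library, or 0.598% (interval 0.594% to 0.603%), and 52271 reads of the inversion library, or 0.552% (interval 0.547% to 0.557%). The 80 genes that passed the filter summed to a log2 ratio of -0.12 (interval -0.14 to -0.11), beside -0.01 for the sum of all genes. Most of the single genes lay close to the wild-type level. Their median log2 ratio was -0.06 (quartiles -0.17 and 0.04), that of all 16756 genes -0.02 (quartiles -0.13 and 0.18), and 50 of the 80 were below 0 (62.5%, against 53.4% of all genes). By the 2-fold threshold 2 members were higher and 0 lower, where 3.99% and 0.483% of all genes were called. By a threshold of 1.5-fold 3 were higher and 0 lower, where 9.41% and 2.04% of all genes were called. The members thus passed these thresholds no more often than genes at large. The counting interval lay below 0 for 19 members (23.8%), where it did for 13.0% of all genes, and above 0 for 8, where it did for 16.7%.

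**Figure D1:**
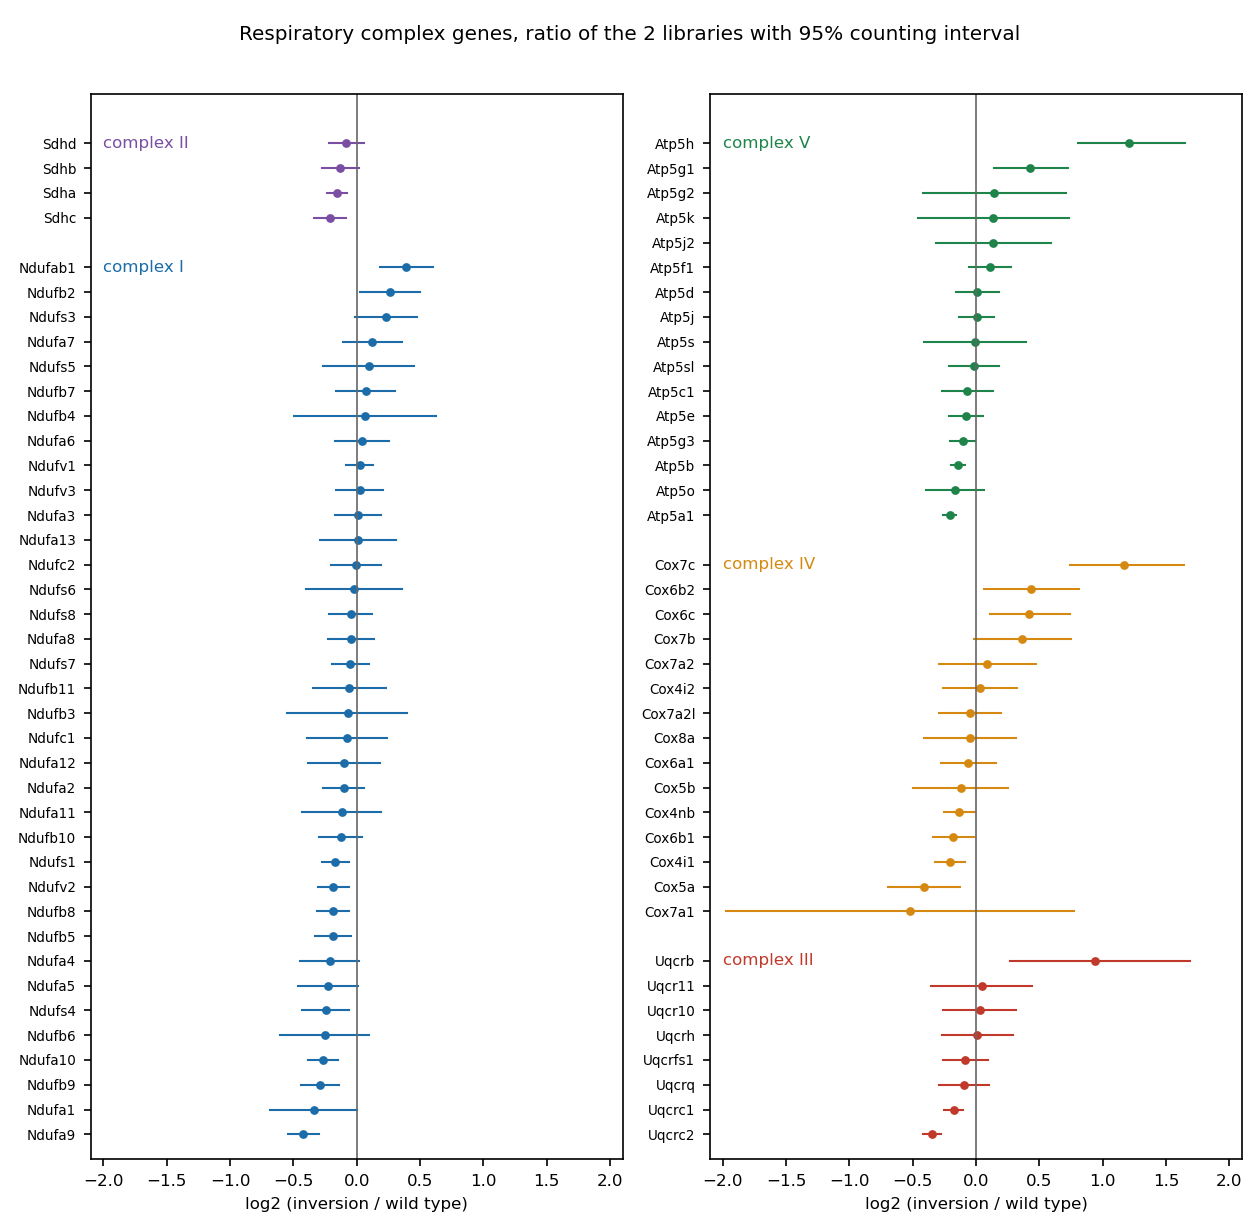
Log2 ratio of the inversion over the wild-type library (x axis) for genes that passed the filter (y axis, by complex), with the 95% counting interval as a bar. Most genes lie between -0.5 and 0.5, and Atp5h, Cox7c and Uqcrb stand to the right at 1.21, 1.17 and 0.94.

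The shift below 0 lay with the abundant members. Of the 15 whose mean reached 1000 normalized reads, 14 were lower in the inversion library and 13 had an interval below 0, with a median log2 ratio of -0.18. Of the 2975 genes of any kind at that level, 65.7% were lower and 32.0% had an interval below 0, with a median of -0.05. At means of 300 to 1000, 20 of 30 members were lower and the median was -0.06, beside -0.03 for all genes. At 100 to 300 the 28 members had a median of 0.00 and all genes -0.01. At 10 to 100 the 7 members had a median of 0.13 and all genes 0.07. Both sets thus moved from above 0 to below 0 with level, by a larger step for the respiratory genes. Part of any count of intervals follows from depth, since an abundant gene has a narrow interval.

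**Figure D2:**
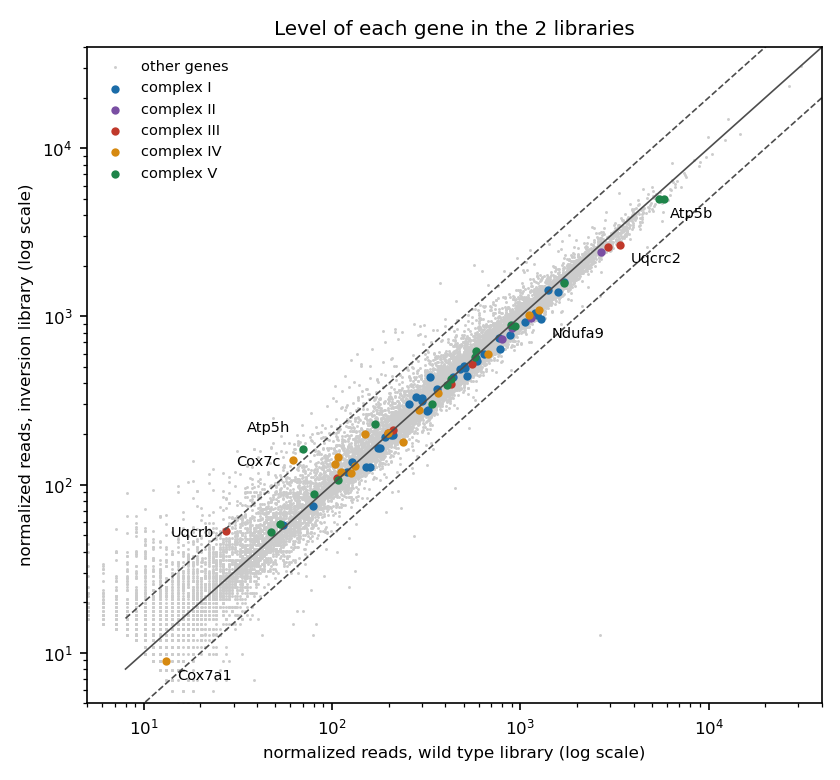
Normalized reads of each gene in the wild-type (x axis) and inversion library (y axis), both on log scales. The solid line marks equal levels and the dashed lines 2-fold, grey points are other genes with reads in both libraries and coloured points the members. Abundant members such as Atp5b and Uqcrc2 lie just under the line, and Atp5h and Cox7c lie above the upper dashed line.

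Levels between genes were compared per length, as normalized reads per kb of transcript in wild type. Each value is the sum over all transcripts of a gene with a known length, non-coding ones included. A short retained intron or processed transcript thus adds much, and the values are not levels of the coding mRNA alone. For Sdha, the coding transcript of 2900 bases held 1474 of 2683 normalized reads, and its other transcripts were 198 to 858 bases long. By this measure the catalytic parts of the ATP synthase stood highest, Atp5b (beta subunit) at 5803 and Atp5a1 (alpha subunit) at 4238 normalized reads per kb. For Atp5b, the coding transcript of 1916 bases held 2307 of 5469 normalized reads, and a processed transcript of 600 bases held 1372. The genes were not ranked by coding transcripts alone, and that order can differ. Uqcrc2, a core protein of complex III, stood at 3248, its partner Uqcrc1 at 1205, and Sdha, the flavoprotein that oxidises succinate, at 3138. The value of Uqcrc1 leaves out a transcript without a known length, which held 937 of its 2928 normalized reads. By reads alone Uqcrc2 had 3400, so the gap between these partners per length was not seen in their reads. By the same measure Ndufb8 (1964) and Ndufv1 (1642), which binds NADH, were highest in complex I, and Cox4i1 (1688) and Cox6b1 (1091) in complex IV. Ndufb8 and Ndufv1 have 10 listed transcripts each, and the coding ones held 510 of 1058 and 556 of 1406 normalized reads. Cox4i1 and Cox6b1 have 1 coding transcript each. The medians per complex, with genes below the filter and the 3 that are no subunits left out, were 590 for complex I, 1284 for II, 432 for III, 220 for IV and 496 for V. Subunits of the same complex, which stand in fixed numbers in the assembled protein, differed widely by this measure. The measure also depends on which transcripts are annotated for a gene. From the lowest to the highest of these genes, the ratio was 24.5 in complex I, 4.47 in II, 64.3 in III, 50.4 in IV and 58.9 in V. Among subunits that passed the filter, the lowest per length were Cox7a1 (33.5), Uqcrb (50.5), Ndufb4 (80.1) and Atp5g1 (98.5), of which Uqcrb, Ndufb4 and Atp5g1 share sequence with a gene elsewhere.

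In complex I the median log2 ratio was -0.07, with 25 of 37 genes lower, 8 intervals below 0 and 2 above. Ndufa9, an accessory subunit next to the ubiquinone site, had 1287 normalized reads in wild type against 960 in the inversion library. Its log2 ratio of -0.42 (interval -0.54 to -0.30) was the lowest of the complex. All of its reads came from 1 coding transcript, at chr6:126821721-126849136. Core subunits carry the flavin, the iron-sulfur clusters and the ubiquinone site. Ndufs1, with iron-sulfur clusters, went from 1577 to 1403 normalized reads (-0.17, interval -0.27 to -0.06), and Ndufv2 from 1198 to 1055 (-0.18, interval -0.30 to -0.06). Ndufv1 had 1406 and 1431 normalized reads (0.02, interval -0.08 to 0.13). The ratios of Ndufs7 (-0.05), Ndufs8 (-0.05) and Ndufs3 (0.23) had intervals that held 0. Of these core subunits, Ndufs1 and Ndufv2 thus had intervals below 0.

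Accessory subunits of complex I with an interval below 0 were, beside Ndufa9, Ndufb9 (-0.29), Ndufa10 (-0.26), Ndufs4 (-0.24), Ndufb5 (-0.19) and Ndufb8 (-0.19). Ndufb8 had 1058 normalized reads in wild type against 929 in the inversion library. By name, the 13 Ndufa genes had a median of -0.10, the 10 Ndufb genes -0.10, the 8 Ndufs genes -0.05 and the 3 Ndufv genes 0.02. On the other side stood Ndufab1, the acyl carrier protein, with 333 and 437 normalized reads (0.39, interval 0.18 to 0.60), and Ndufb2 with 278 and 334 (0.26, interval 0.03 to 0.50). For Ndufb2 the difference lay in a long coding transcript of 4371 bases, with 132 and 207 reads, while its other coding transcript had 55 and 42. Its level per length was lower in the inversion library, with 293 normalized reads per kb against 318 in wild type. The difference of Ndufab1 was not seen in its coding transcripts, which had 243 and 232 normalized reads (-0.07, interval -0.33 to 0.20). One of its retained intron transcripts went from 25 to 110 reads.

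All 4 genes of complex II, succinate dehydrogenase, were lower, with a median of -0.14. Sdha had 2683 normalized reads in wild type against 2412 in the inversion library (-0.15, interval -0.23 to -0.07). Sdhc, a membrane anchor, had 1134 and 979 (-0.21, interval -0.34 to -0.09). The intervals of Sdhb, the iron-sulfur subunit (-0.13, interval -0.28 to 0.02), and of Sdhd, the other anchor (-0.08, interval -0.22 to 0.05), held 0. The intervals of the 4 genes overlapped one another.

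Complex III held both ends. The core proteins Uqcrc2 and Uqcrc1 were lower: Uqcrc2 had 3400 normalized reads in wild type against 2671 in the inversion library (-0.35, interval -0.42 to -0.27), and Uqcrc1 had 2928 and 2592 (-0.18, interval -0.25 to -0.10). For Uqcrc2 the coding transcript alone gave -0.39 (1530 and 1193 reads), and its other transcripts -0.33. These 2 genes made up most reads of the 8 genes counted here, which summed to -0.22 while their median was -0.04. Cyc1, which the name rule leaves out, had 1298 and 1220 normalized reads (-0.09, interval -0.20 to 0.02). Uqcrb, the ubiquinone-binding small subunit, had 27.3 and 53.3 normalized reads (0.94, interval 0.27 to 1.69). Its coding transcript had 21 and 27 reads (0.31, interval -0.55 to 1.22) and its retained intron transcript 6 and 27. The iron-sulfur protein Uqcrfs1 (-0.08) and Uqcr10, Uqcr11, Uqcrh and Uqcrq (-0.10 to 0.04) had intervals that held 0.

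In complex IV, cytochrome c oxidase, the median was -0.05, with 4 intervals below 0 and 3 above. Cox5a had 239 normalized reads in wild type against 180 in the inversion library (-0.41, interval -0.70 to -0.13). Cox4i1, the largest nuclear subunit and usual form of subunit 4, had 1258 and 1091 (-0.20, interval -0.32 to -0.09), and Cox6b1 had 674 and 596 (-0.18, interval -0.34 to -0.02). Cox4nb, which is no subunit, had -0.13. Cox7c, a small membrane subunit, had 61.8 and 140 normalized reads, 2.27-fold (log2 ratio 1.17, interval 0.74 to 1.64). For Cox7c the difference lay in coding transcripts, with 47 and 124 reads (1.35, interval 0.87 to 1.88), but these did not move together. Of its coding transcripts, 1 went from 4 to 42 reads, another from 16 to 70 and the last from 27 to 12. Cox6c had 149 and 199 normalized reads (0.42, interval 0.11 to 0.74), of which the coding transcripts had 65 and 70 reads (0.07) and 1 retained intron transcript 60 and 112.

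In complex V the median was 0.00 and 8 of 16 genes were lower. Atp5a1 had 5785 normalized reads in wild type against 5005 in the inversion library (-0.21, interval -0.26 to -0.15), and Atp5b had 5469 and 4958 (-0.14, interval -0.20 to -0.09). Both catalytic subunits were thus lower by a like amount, and the sum of the complex was -0.11. Atp5h, subunit d of the peripheral stalk, had 69.9 and 163 normalized reads, 2.33-fold (log2 ratio 1.21, interval 0.81 to 1.65), the highest of the 80. Its protein-coding transcripts had 17 reads in both libraries (-0.03, interval -1.10 to 1.02). The other 52 and 148 reads were assigned to processed transcripts, 1 of which went from 21 to 81 reads and another from 10 to 41. The remaining genes with intervals that held 0 ranged from Atp5o (-0.17) to Atp5g2 (0.14). Below the filter, Atp5l had 4 and 10 reads and Atp5l2 had 2 and 4, for which the intervals of the ratio held 0.

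Subunits with more than 1 gene were compared within each family, by their share of the family's reads. Cox4i2, the form known from lung and low oxygen, took 13.6% of subunit 4 reads in wild type (interval 11.8% to 15.4%) and 15.6% in the inversion library (interval 13.7% to 17.7%). Cox6a2, the heart and muscle form of subunit 6a, took 4 of 365 reads (1.10%, interval 0.30% to 2.78%) and 3 of 358 (0.84%, interval 0.17% to 2.43%). Cox7a1, the muscle form of subunit 7a, took 13 of 408 reads (3.19%, interval 1.71% to 5.39%) and 9 of 412 (2.18%, interval reaching to 4.11%). These totals include Cox7a2l, counted here by its name, with 285 and 283 reads. Beside Cox7a2 alone, the share of Cox7a1 was larger, with 13 against 110 reads in wild type and 9 against 120 in the inversion library. The log2 ratio of Cox7a1 was -0.52, the lowest of the 80, with an interval of -1.97 to 0.77. The shares of these 3 forms did not differ detectably at this depth. Cox7b2 had 0 and 1 reads beside 102 and 135 of Cox7b. By the floor of 3 counts, 0 in 102 allows a share of up to 2.94%, and the upper bound of its interval was 3.55%. The usual forms Cox6a1 (-0.06), Cox7a2 (0.09) and Cox8a (-0.05), and Cox7a2l (-0.05), had log2 ratios with intervals that held 0.

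In 2 families the share of an isoform differed between the libraries by more than counting error. Cox6b2, known as the testis form of subunit 6b, took 13.7% of its family's reads (interval 11.4% to 16.4%) in wild type and 19.6% (interval 16.8% to 22.6%) in the inversion library. It had 107 and 145 normalized reads (0.43, interval 0.07 to 0.81), from 1 coding transcript that shared no window. In the family of subunit c of the ATP synthase, whose genes encode the same mature protein, Atp5g3 took 88.5% of reads in wild type against 84.7% in the inversion library. Atp5g1 took 8.76% (interval 7.53% to 10.1%) and 12.2% (interval 10.7% to 13.7%), with 169 and 228 normalized reads (0.43, interval 0.14 to 0.73). The difference lay in its coding transcript of 4715 bases, with 121 and 181 reads. Its other coding transcripts had 22 and 23 reads, and 24 and 27. Per length the share of Atp5g1 was 3.93% and 4.85%. Atp5g1 shared 6.22% of its windows of 100 bases with genes elsewhere, and Atp5g2 100%. Atp5g2 took 2.73% and 3.11%, with intervals that overlapped.

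The same tissue held more muscle RNA in the inversion library. The 12 muscle markers that were measured (myogenic factors and sarcomere genes) summed to 1361 and 2878 reads, a log2 ratio of 1.04, with a median of 0.93, 11 of 12 higher and 9 intervals above 0. Myh3, embryonic myosin, had 191 and 706 normalized reads. The muscle forms Cox6a2 and Cox7a1 stayed at 3 to 13 reads per library, so that they give little information on this shift, and the part of the muscle RNA in the ratios of the other members was not tested. The 6 erythroid markers summed to -0.23 (all 6 lower, 3 intervals below 0), the 3 ectoderm markers to -0.23 (all with intervals below 0) and the 3 endothelial ones to -0.09. The 7 limb mesenchyme markers summed to 0.01, with intervals above 0 for 2 and below 0 for 1. The 3 macrophage markers summed to 0.02 but did not move together. Cd68 had 0.62 (interval 0.23 to 1.01), while Csf1r (-0.12) and Aif1 (-0.54) had intervals that held 0. Of the 2 genes known for hindlimb identity, Tbx4 had 430 and 394 reads and Pitx1 had 44 and 29. The part of these cell types in the results was not tested.

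The libraries also differed in the genes that mark the sex of the embryos. Xist had 2607 and 13 reads (wild type, then inversion), and the 4 genes of the Y chromosome 134 to 282 in the first and 516 to 909 in the second. Of the members, 3 lie on the X chromosome. Ndufa1 had 160 and 126 normalized reads (-0.34, interval -0.69 to 0.01), Ndufb11 had 205 and 197 (-0.06, interval -0.35 to 0.23) and Cox7b had 103 and 133 (0.37, interval -0.01 to 0.75). All 3 intervals held 0. The median over the 839 X-linked genes was -0.05, and without these 3 the median of the members stayed at -0.06. Sex and genotype cannot be told apart here.

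The ratios went with the type of transcript. In wild type, 69.6% of the members' reads were assigned to transcripts that GENCODE M21 lists as protein-coding, 14.9% (interval 14.6% to 15.2%) to retained intron transcripts and 9.96% to other processed transcripts. In the inversion library the retained intron share was 16.2% (interval 15.9% to 16.6%) and the coding share 68.3%. Over all genes the retained intron share was lower, 5.99% in wild type and 7.12% in the inversion library, and differed in the same direction. For 43 members both the coding and the other transcripts passed the filter. Their coding part had a median log2 ratio of -0.10, with 12 intervals below 0 and 2 above, and their other part 0.03, with 5 below and 6 above. Within a gene the other transcripts stood above the coding ones in 32 of 43 (74.4%), by a median of 0.15. Over 5377 genes of any kind this was 66.9%, by a median of 0.11, so that the respiratory genes were near the background in this difference. The coding part of these 5377 genes had a median of -0.04, with 885 intervals below 0 and 678 above. Their other part had a median of 0.10, with 347 below and 1348 above. In the other part, intervals above 0 thus outnumbered those below by far over all genes, but not among the 43 members. With protein-coding transcripts only, the median of the 80 members was -0.10, beside -0.04 for all genes.

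**Figure D3:**
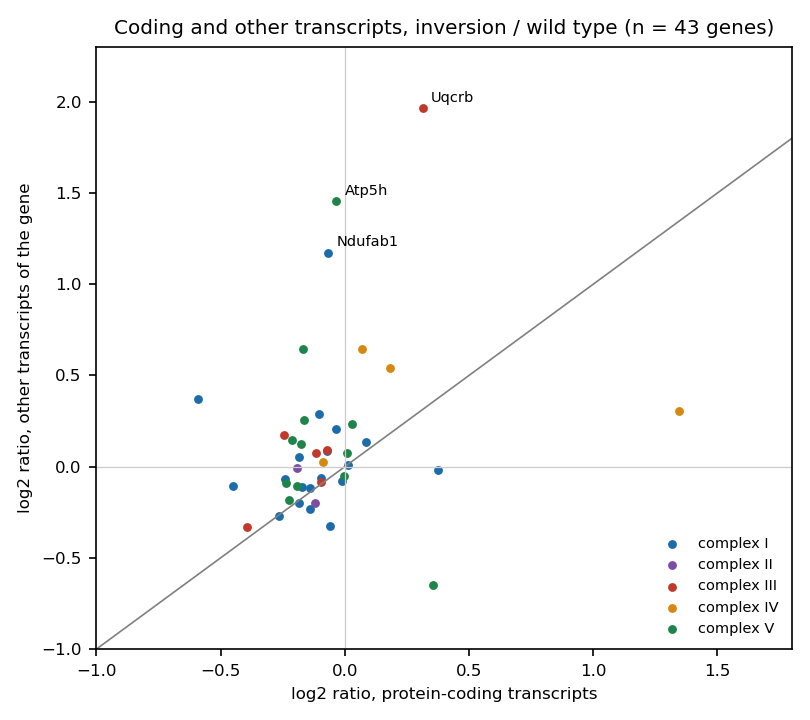
Log2 ratio (inversion over wild type) of the protein-coding transcripts of a gene (x axis) against that of its other transcripts (y axis), for the 43 members with both. Points above the diagonal have a higher ratio in the other transcripts, and Uqcrb, Atp5h and Ndufab1 stand highest, with coding ratios of 0.31, -0.03 and -0.07.

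Among the members the ratios also went with sequence shared with other genes. Windows of 100 bases, the length of a read, were taken along the main coding transcript of each gene and looked up in all annotated transcripts of genes elsewhere. Other transcripts of a gene, in which Atp5h and Uqcrb gained most reads, were not searched. Of the 80 members, 16 (20.0%) held a shared window, against 11.3% of 13885 genes with a coding transcript. These 16 had a median log2 ratio of 0.13, with 6 intervals above 0 and 0 below. The 64 without a shared window had a median of -0.08, with 2 intervals above 0 and 19 below. Over coding transcripts alone these medians were -0.03 and -0.12. Over all genes the medians were 0.00 with and -0.02 without such a window. The 16 also had a lower level in wild type, with a median of 189 normalized reads per kb against 592. The largest shares were those of Atp5g2 (100%), Atp5l (61.3%, below the filter, with 5 pseudogenes), Ndufb4 (33.4%), Atp5h (30.7%), Ndufs3 (19.9%), Ndufs5 (19.8%), Cox7c (19.7%), Ndufa12 (17.7%, with a log2 ratio of -0.10) and Uqcrb (15.8%). The other 2 members with an interval above 0, Cox6b2 and Ndufb2, held none. How the authors' pipeline assigned a read that fits several places is not given in the sources used here, and its part in these ratios was not tested.

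**Figure D4:**
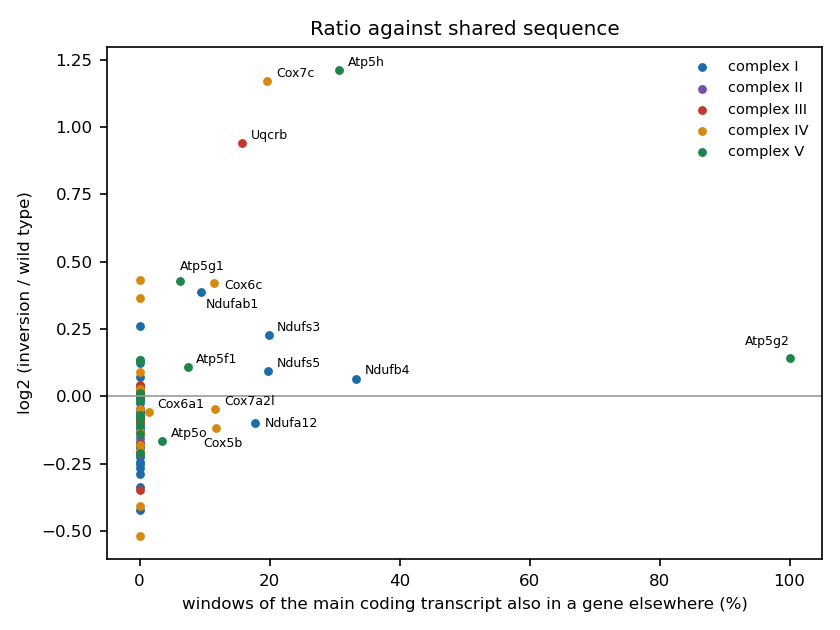
Log2 ratio of inversion over wild type (y axis) against the percentage of 100-base windows of the main coding transcript that an annotated gene elsewhere also holds (x axis), for the 80 members. The 16 genes with a shared window are named, and Atp5h, Cox7c and Uqcrb are among them.

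Other genes of energy metabolism were taken from lists made by function. The 73 proteins of the mitochondrial ribosome, which makes the subunits encoded by mitochondrial DNA, had a median of -0.10, with 54 lower, 19 intervals below 0 and 4 above. Their ratios ran from Mrpl39 (-0.33) to Mrps10 (0.69). The 17 enzymes of the citric acid cycle and pyruvate dehydrogenase had a median of -0.12, with 13 lower, 7 intervals below 0 and 0 above. The lowest was Mdh2, malate dehydrogenase, with 2299 and 1799 normalized reads (-0.35, interval -0.44 to -0.26), and the highest Pdhb (0.19, interval -0.06 to 0.45). Cytochrome c and 6 other parts of the chain outside the name rule had a median of -0.09, with 0 intervals below 0 and 1 above, that of Atpif1, the inhibitor of the ATP synthase (0.34, interval 0.08 to 0.61). Cycs, cytochrome c itself, had 61.8 and 55.3 normalized reads (-0.16, interval -0.71 to 0.39).

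The 28 assembly factors had a median of -0.04, with 1 interval below 0 and 3 above, from Ndufaf2 (-0.41, interval -0.66 to -0.17) to Cox17, a copper chaperone for complex IV (0.49, interval 0.26 to 0.73). The 16 genes of mitochondrial transcription and biogenesis had a median of 0.02, with 1 interval below 0 and 4 above. The lowest was Tfb1m (-0.14, interval -0.38 to 0.11) and the highest Ssbp1, which binds single-stranded mitochondrial DNA (0.63, interval 0.38 to 0.88). Ppargc1a, a coactivator of mitochondrial genes, had 151 and 199 normalized reads (0.40, interval 0.09 to 0.72). The 17 glycolytic genes had a median of -0.03, with 4 intervals below 0 and 3 above. They ran from Aldoc (-0.44) to Gapdh (1.40), which shared 78.0% of its windows with a gene elsewhere. The 13 protein genes of mitochondrial DNA, whose products join the same complexes, had a median of 0.04, with 9 higher, 0 intervals below 0 and 1 above. Their ratios lay between mt-Nd2 (-0.04, interval -0.19 to 0.11) and mt-Nd3 (0.15, interval -0.15 to 0.46). Of their windows, mt-Co3, mt-Co2, mt-Atp6, mt-Nd4l and mt-Nd3 shared 97.6% to 99.9% with a gene elsewhere. The gene with the interval above 0, mt-Nd4, shared 60.8%, mt-Co1 30.8%, mt-Nd2 3.19% and the others none. The part of shared sequence in these ratios was not tested. Among lists with over 10 genes, the nuclear members, mitochondrial ribosome and citric acid cycle thus had the medians furthest below that of all genes. The median of the 13 mitochondrial genes stood on the other side of 0, while 12 of their intervals held 0.

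**Figure D5:**
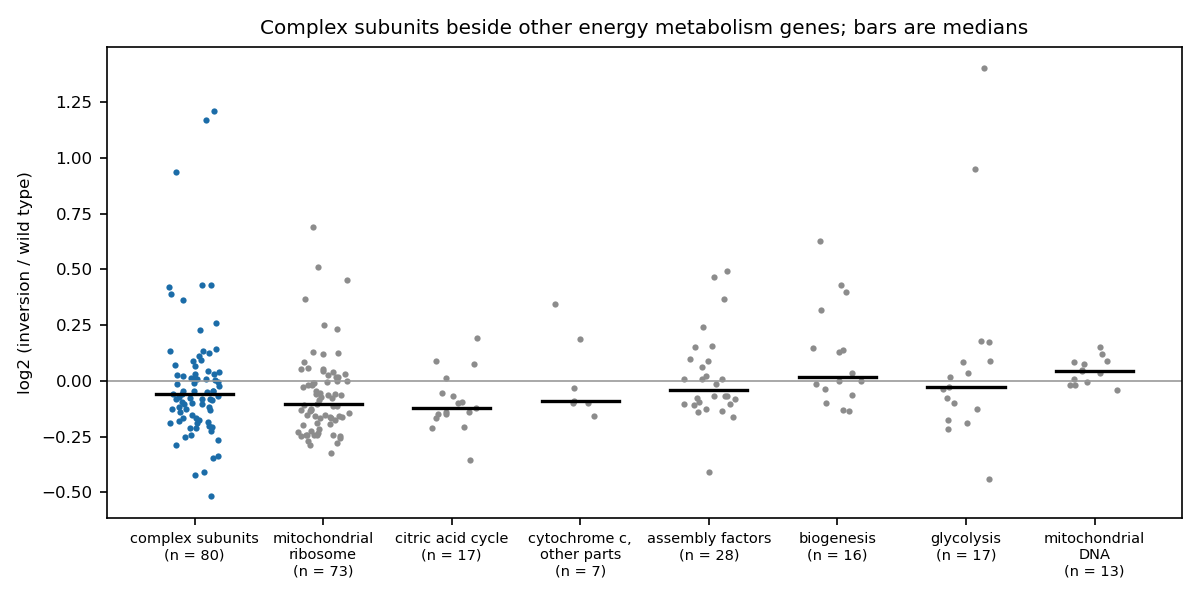
Log2 ratio of inversion over wild type (y axis) for the 80 members and for 7 lists of other energy metabolism genes (x axis, number of genes below each), each point 1 gene and each bar the median of the list. Medians run from -0.12 for the citric acid cycle to 0.04 for the genes of mitochondrial DNA, and the members lie at -0.06.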

How the data were processed

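RNA of E12.5 distal forelimbs was sequenced as 100-base single-end reads from stranded, poly(A)-selected libraries, 1 per genotype. The submitters' processing notes name Bowtie2 and the builds mm9 and NCBIM37. Other tool settings are not given in the sources used here. The deposited signal columns list transcripts, and the authors had scaled the reads of each by a size factor and put 0.5 where there were none. The methods give RPKM, but these values do not follow length. Each value was a whole multiple of 1 read (tolerance 0.02) in 100% of cases. The columns with a mean, fold change, log2 fold change, p-value and adjusted p-value come from 1 library per genotype and were not used. No per-sample column was left unmapped.

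Values of no reads were set to 0, and 64053 transcripts were summed by symbol and chromosome to 23157 genes. Log2 ratios used a pseudocount of 1 and genes with a mean of at least 10, counted at 2-fold. Normalized values with whole reads recovered, and not RPKM, were thus the base. As an alternative the recovered reads were given an exact binomial test (Benjamini-Hochberg adjusted p under 0.05). It compares these 2 libraries, not the genotypes. The ratio and interval steps were tested on simulated data.

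GENCODE M21 gave transcript types, lengths and positions by transcript identifier, on GRCm38, while the mapping had used NCBIM37 (88.1% of transcripts, and 274 of 279 transcripts of the members, with 98.0% of their reads). No coordinate was converted. Windows were matched exactly on either strand, leaving out overlapping genes. Promoters came from RefSeq on GRCm38.p6. For 15 members no window was found through a gene matched by symbol or synonym, among them Atp5a1, Atp5l2, Cox4i1, Cox4i2, Cox4nb, Cox6a2, Cox6c, Ndufa2, Ndufb9, Ndufs1, Sdhc, Uqcrb, Uqcrc2 and Uqcrq. Sco2, Pkm and Ckm of the lists were not analysed here.

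Named are the 5 highest and 5 lowest members, the extremes of each complex, its 2 genes with the highest level per length, all isoforms, X-linked members, members below the filter and the extremes of each list of energy metabolism genes. All other genes named were chosen after their values were seen. The members and lists were chosen with earlier results of these data known. Members not named enter counts and ranges, and the values of 1 of them are not reported here. Intervals and the floor of 3 counts cover counting error only. The tools were scipy 1.17.1, pandas 2.3.3 and numpy 2.4.6 under Python 3.11.15, with figures by matplotlib 3.10.9.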

Additional observations from a re-analysis of the deposited data

How the results depend on the processing

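The median of the members stayed below 0 and below that of all genes under each alternative run, from -0.10 (protein-coding transcripts only) to -0.05 (scaling by total reads). Leaving out the members with a shared window, an alternative chosen after seeing the data, gave -0.08. No scaling moved the median of all genes by over 0.1. The count of members at least 2-fold higher was 2, 1 with protein-coding transcripts only and 3 without the filter (84 genes). By intervals that leave out 0 in place of the fold, 8 of the 80 members were higher and 19 lower, beside 16.7% and 13.0% of all genes. By the exact binomial test on recovered reads 6 members were higher and 16 lower, beside 2068 and 1318 of all 16756 genes. With protein-coding transcripts only, Atp5h had -0.034 and Ndufab1 -0.066, both reversed, and Ndufab1 had -0.022 with the transcript of the highest mean. The transcript with the highest mean gave 1.86 for Atp5h and 2.03 for Cox7c. By construction the protein-coding setting leaves out the non-coding transcripts in which both genes gained reads. Of 145 values of summaries 140 kept direction and side of the threshold or stayed within 1.5 times. No paired analysis was possible because each genotype has 1 library, and no library could be left out. Depth limits the members with few reads: Cox7a1, Cox6a2, Cox7b2, Atp5l and Atp5l2 allow no statement on direction.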
